A study of Rattus norvegicus with 12 samples.

Results

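The genes of the circadian clock were followed in primary rat cortical neurons exposed to volatile anaesthetics. The set held 10 genes, listed by symbol: Clock, Bmal1, Per1, Per2, Per3, Cry1, Cry2, Dbp, Nr1d1 and Nr1d2. No filter on their values was used, but the list was made with earlier results of these data known. Of the 10 genes, 7 had a named probe and all 7 were tested, out of 9653 genes with a named probe. They were read by 9 probes, 2 each for Per1 and Per3 and 1 for each of the others. No probe was matched to Cry1, Nr1d1 or Nr1d2, which were not analysed here.

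Cortical cells from fetuses of 3 rats at pregnancy day 17 were kept apart by mother, with 4 plates per rat. They were treated after 16 days in vitro. The groups were halothane at 3 MAC (about 3%), halothane at 1 MAC (about 1%), isoflurane at 3 MAC (about 4%) and untreated control, with 3 arrays each. MAC, the minimum alveolar concentration, is the potency unit of inhaled anaesthetics. Exposure lasted 6 h in a sealed chamber and was followed by 6 h of recovery. Control plates were kept in air in the incubator that held the chamber, so gas and chamber time cannot be told apart in any difference from control. There was no group at 1 MAC of isoflurane, and all groups were harvested at 1 time, so phase and rhythm were not measured. The labels do not settle which mother gave which plate, and the p-values measure the spread between these arrays, which may be technical. In such bulk RNA, fewer cells of a type and less RNA per cell cannot be told apart.

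Each array compared 1 sample with a pool of control RNA. Every value below is a log2 ratio of sample over pool, so 0 is the level of the pool. The direction and the log base of the deposited values are likely and not stated: were the ratio pool over sample, each sign below would turn, and a base under 10 would shrink the folds. The values are ratios, so the level of one gene was not set against that of another, and whether the neuron markers were present could not be judged. Differences are given with the standard error (SE) of a linear model fitted over 16546 features with limma, which moderates each feature's spread, and adjusted p-values are Benjamini-Hochberg values over all of them, with a threshold of 0.05. The number of arrays limits the precision.

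A pair of arrays stood apart from the labels of their groups. Halothane 1 MAC replicate 1 had a median log2 ratio of 0.23, against −0.01 to 0.01 on the others, a spread (SD) of 0.82 against 0.32 to 0.48, and a correlation of at most 0.18 with any other array across 8933 genes. Across the same genes, control 2 had correlations of 0.75 to 0.77 with the 3 arrays of halothane 3 MAC, but of 0.07 and −0.05 with controls 1 and 3. Genes are not independent replicates in these correlations. Halothane 1 MAC replicate 1 also differed from every other array in its counts of exact zeros and of spots at the limit of the values, given with the processing. Results that rest on either array are given with and without it, and removing both together was chosen after the data had been seen. Control 2 was singled out for its likeness to halothane 3 MAC. Leaving it out thus favours larger differences between that group and control, and the p-values of such fits are not separate support.

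The circadian clock is a transcriptional feedback loop present in most mammalian cells, neurons and astrocytes included. CLOCK and BMAL1 pair on E-box elements and activate the Per and Cry genes, whose proteins return to the nucleus and repress that pair. BMAL1 and CLOCK also drive Dbp, which activates through D-boxes, and the REV-ERB receptors Nr1d1 and Nr1d2, which repress Bmal1 through ROR elements (ROREs). Per1 and Per2 also respond to CREB and glucocorticoid signals, which is how many stimuli reset the loop.

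The promoters of Per2 and Bmal1 were chosen after the motif search, for letters in their windows that match a D-box, an E-prime box or a RORE. In RefSeq windows on the GRCr8 build, from 250 bases before to 50 bases after the annotated gene start, 9 of the 10 clock genes had 11 windows of 300 bases. Both strands were searched, and motif positions are those of the first base, counted from the gene start. The Per2 window lies at chr9:99496944-99497243 on the minus strand, and the Bmal1 window at chr1:176766078-176766377 on the plus strand. Capitals mark a D-box and an E-prime box in Per2 and a RORE in Bmal1.
Per2: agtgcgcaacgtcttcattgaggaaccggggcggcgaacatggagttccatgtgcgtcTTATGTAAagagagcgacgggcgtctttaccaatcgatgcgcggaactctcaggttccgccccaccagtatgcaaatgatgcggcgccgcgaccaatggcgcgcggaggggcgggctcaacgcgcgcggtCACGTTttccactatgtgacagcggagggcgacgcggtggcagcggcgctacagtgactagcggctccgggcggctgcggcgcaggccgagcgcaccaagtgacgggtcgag
Bmal1: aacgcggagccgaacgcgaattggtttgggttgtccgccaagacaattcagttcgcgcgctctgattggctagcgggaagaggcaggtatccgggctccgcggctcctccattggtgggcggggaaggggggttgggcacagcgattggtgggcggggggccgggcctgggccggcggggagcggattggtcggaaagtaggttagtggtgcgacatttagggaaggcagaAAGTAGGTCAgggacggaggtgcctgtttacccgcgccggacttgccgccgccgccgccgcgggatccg

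In Per2 the D-box (TTATGTAA) started at −192 and the E-prime box (CACGTT) at −62, and a core of the cAMP response element (TGACG, the CRE core) stood at 39. In Bmal1 the RORE started at −19. E-prime boxes also stood in the windows of Cry2, at −212, and of Nr1d1, at −174, and an E-box (CACGTG) stood in the other Nr1d1 window, at −191. Of all 33469 RefSeq promoter windows of this length, 4.83% held the E-prime box, 6.42% the E-box, 1.01% a D-box (TTATGTAA or TTACGTAA), 0.48% the RORE and 21.2% the CRE core. The full cAMP response element (TGACGTCA) was in 1.83% of all windows and in 0 of the 11 clock gene windows. The CRE core lies within that element, and was found in 3 of the 11. A match says only that these letters are present in the window.

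**Figure D1:**
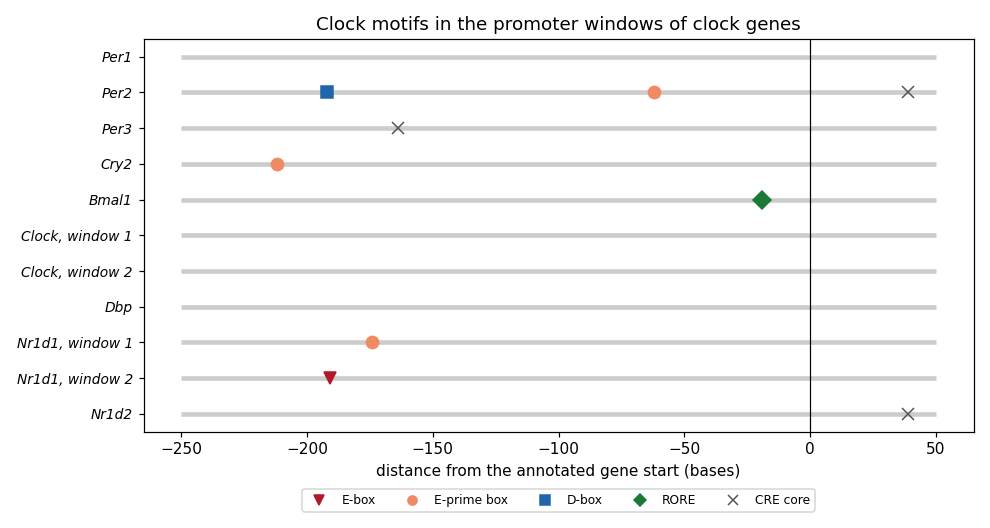
Positions of the motifs searched in the 11 promoter windows of clock genes, as distance of the motif's first base from the annotated gene start in bases (x axis), with 1 row per window. The Per2 window holds 3 kinds of motif, a D-box at −192, an E-prime box at −62 and a CRE core at 39, and the Bmal1 window holds a RORE at −19.

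None of the 7 clock genes passed the threshold in any comparison over all 12 arrays. Clock was the gene nearest to it, higher with isoflurane, while Per2, Bmal1, Dbp and Cry2 had their lowest group means with halothane 3 MAC. For Cry2 that mean was −0.16, close to the −0.14 of controls. Over any difference among the 4 groups, the smallest adjusted p-values in limma were 0.124 for Clock, 0.199 for Bmal1 and 0.237 for Dbp. They were 0.435 for Per1, 0.530 for Per2, 0.577 for Cry2 and 0.866 for Per3. At an adjusted p under 0.05, 0.205% of all features passed this test and 0 of 7 clock genes did. At an unadjusted p under 0.05 it was 17.7% of features and 3 of 7 clock genes, Clock, Bmal1 and Dbp.

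**Figure D2:**
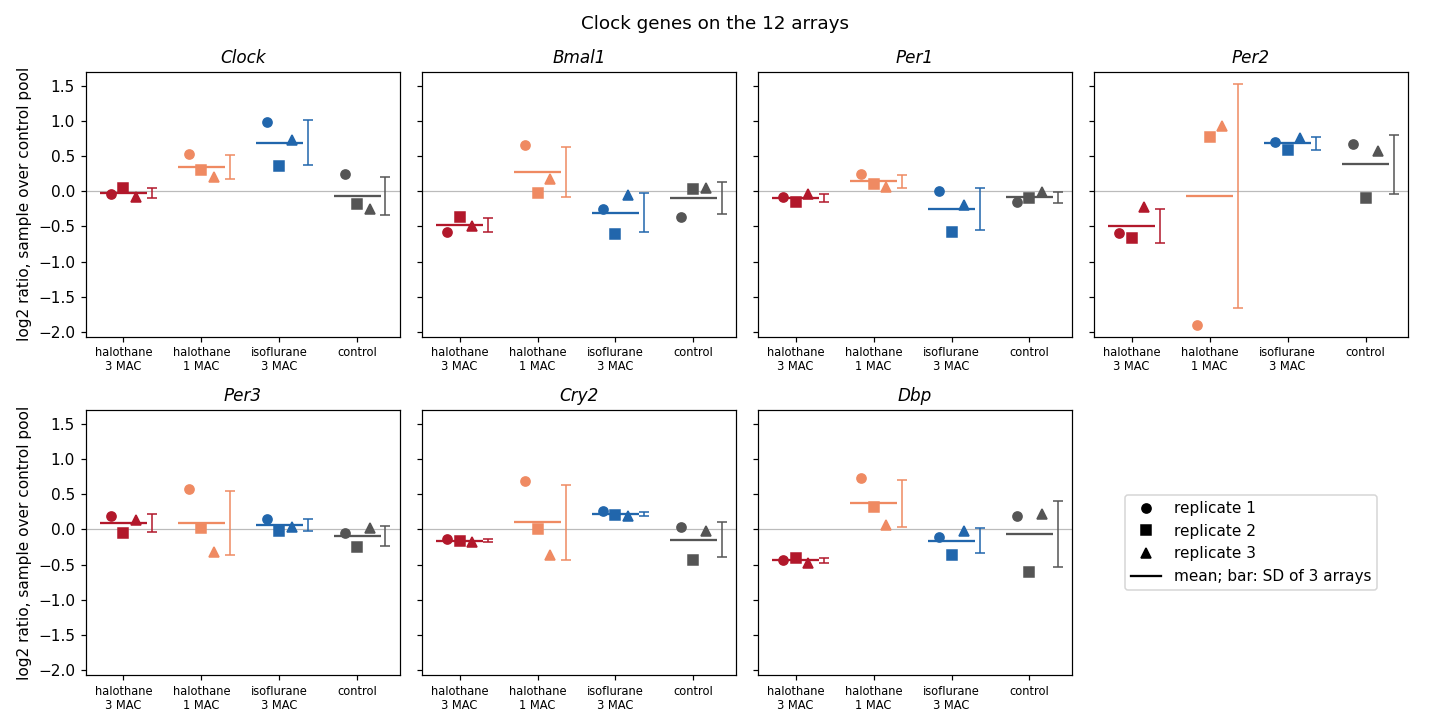
Log2 ratio of sample over control pool (y axis) of the 7 measured clock genes on each of the 12 arrays, by group (x axis), with symbols for the replicate number, horizontal lines for group means and bars for the SD of 3 arrays. The isoflurane points of Clock lie at 0.36 to 0.99, above all halothane 3 MAC and control points, and the lowest Per2 point is halothane 1 MAC replicate 1 at −1.90.

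Of the activators, Clock encodes the bHLH-PAS partner of BMAL1. Clock gave log2 ratios of −0.04, 0.05 and −0.08 at halothane 3 MAC, 0.53, 0.31 and 0.20 at halothane 1 MAC, 0.99, 0.36 and 0.73 under isoflurane, and 0.24, −0.18 and −0.25 in control plates. All 3 isoflurane arrays lay above every control and every halothane 3 MAC array, while the halothane 1 MAC arrays overlapped both isoflurane and control. Clock averaged 0.69 ± 0.32 with isoflurane and −0.06 ± 0.27 in controls (SD, n = 3 each), a difference of 0.75 ± 0.19 (SE, 95% confidence interval 0.34 to 1.17), or 1.69-fold, with an adjusted p of 0.151 in limma. Leaving out halothane 1 MAC replicate 1, which enters this test only through the shared spread, gave an adjusted p of 0.0507.

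Halothane 3 MAC and isoflurane differed in Clock by −0.71 ± 0.19 (SE, adjusted p = 0.0654 in limma), and that difference passed without halothane 1 MAC replicate 1 (adjusted p = 0.0265). The group order of Clock was isoflurane, halothane 1 MAC (0.35 ± 0.17), halothane 3 MAC (−0.02 ± 0.07) and control. Its last 2 groups differed by 0.04 ± 0.19, within an interval of −0.38 to 0.46, and the sign of that difference turned in several alternatives. Halothane 1 MAC minus control was 0.41 ± 0.19 (adjusted p = 0.626), with an interval of −0.01 to 0.83.

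Bmal1, the partner of CLOCK in the activating pair, was lowest with halothane 3 MAC. Bmal1 gave log2 ratios of −0.57, −0.37 and −0.50 at halothane 3 MAC, 0.66, −0.03 and 0.18 at halothane 1 MAC, −0.25, −0.61 and −0.05 under isoflurane, and −0.37, 0.04 and 0.04 in control plates. The halothane 3 MAC arrays lay below all halothane 1 MAC and control arrays, the nearest control (−0.365) lying just above the highest of them (−0.369), and they overlapped the isoflurane arrays. Bmal1 averaged −0.48 ± 0.10 with halothane 3 MAC and 0.27 ± 0.35 with halothane 1 MAC (SD, n = 3 each), a difference of −0.75 ± 0.21 (SE, 95% confidence interval −1.21 to −0.30; adjusted p = 0.102 in limma). Without halothane 1 MAC replicate 1 and control 2 it was −0.56 (adjusted p = 0.0865). Against control, halothane 3 MAC stood at −0.39 ± 0.21, halothane 1 MAC at 0.37 ± 0.21 and isoflurane at −0.21 ± 0.21. None of these 3 passed, and halothane 1 MAC stood at 0.17 ± 0.18 over control without its replicate 1.

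Clock and Bmal1, whose proteins act as a pair, thus had their highest group means in different treatments, Clock with isoflurane and Bmal1 with halothane 1 MAC. A difference between both genes in response was not tested.

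Of the repressors, Per2 encodes the period protein whose loss shortens behavioural rhythms in mice. Per2 gave log2 ratios of −0.59, −0.67 and −0.22 at halothane 3 MAC, −1.90, 0.77 and 0.93 at halothane 1 MAC, 0.70, 0.58 and 0.76 under isoflurane, and 0.67, −0.10 and 0.57 in control plates. All halothane 3 MAC arrays were below 0 and below every isoflurane and control array. Halothane 1 MAC replicate 1 was the lowest of the 12, whereas the other halothane 1 MAC arrays were the highest. Control 2 lay nearest to the halothane 3 MAC arrays.

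Per2 averaged −0.49 ± 0.24 with halothane 3 MAC, −0.06 ± 1.59 at halothane 1 MAC, 0.68 ± 0.09 under isoflurane and 0.38 ± 0.42 in controls (SD, n = 3 each). For Per2, halothane 3 MAC minus isoflurane was −1.17 ± 0.58 (SE, interval −2.44 to 0.10; adjusted p = 0.350 in limma) and halothane 3 MAC minus control −0.87 ± 0.58 (interval −2.14 to 0.39; adjusted p = 0.921). These SEs carry the SD of the halothane 1 MAC group. Without halothane 1 MAC replicate 1 the same differences had an SE of 0.20, and halothane 3 MAC minus isoflurane passed (adjusted p = 0.0103) while halothane 3 MAC minus control did not (adjusted p = 0.198).

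Between the halothane doses, leaving out that array moved Per2 from −0.43 ± 0.58 (adjusted p = 0.679) to −1.35 ± 0.22 (adjusted p = 0.0444 in limma), a 2.54-fold lower value at 3 MAC, and turned halothane 1 MAC minus control from −0.45 ± 0.58 to 0.47 ± 0.22 (adjusted p = 0.646). With control 2 left out as well, Per2 was lower with halothane 3 MAC than in each other group. The log2 difference was −1.12 against control (adjusted p = 0.00152 in limma), −1.35 against halothane 1 MAC (adjusted p = 0.000606) and −1.17 against isoflurane (adjusted p = 0.000318). The difference from control was favoured by leaving out the control nearest to halothane 3 MAC. That between the halothane doses was likewise favoured by leaving out the lowest halothane 1 MAC array (−1.90). The comparison with isoflurane holds neither array, so only the shared spread changed there.

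Per1, a period gene that light and other stimuli induce rapidly, had the smallest SE of the clock genes. As the mean of its 2 probes, Per1 gave log2 ratios of −0.08, −0.15 and −0.04 at halothane 3 MAC, 0.25, 0.10 and 0.07 at halothane 1 MAC, 0.01, −0.58 and −0.20 under isoflurane, and −0.16, −0.10 and −0.01 in control plates. In this mean the halothane 1 MAC arrays lay above all arrays of the other groups, but on neither probe alone. On probe 1, halothane 1 MAC replicate 3 (−0.064) lay below halothane 3 MAC replicate 3 (−0.041). On probe 2, halothane 1 MAC replicate 2 (0.157) lay below control 3 (0.159). Halothane 1 MAC minus control was 0.23 ± 0.16 (SE, interval −0.12 to 0.57; adjusted p = 0.626 in limma). For Per1, halothane 3 MAC minus control was −0.00 ± 0.16 (interval −0.35 to 0.34), and isoflurane minus control −0.17 ± 0.16 (interval −0.51 to 0.18). The probes gave 0.12 and −0.13 for halothane 3 MAC minus control, opposite in sign, and 0.27 and 0.19 for halothane 1 MAC minus control.

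Per3, a period gene that the core loop can run without in mice, gave no group apart from the rest. Per3 gave log2 ratios of 0.19, −0.06 and 0.13 at halothane 3 MAC, 0.58, 0.01 and −0.33 at halothane 1 MAC, 0.15, −0.02 and 0.04 under isoflurane, and −0.05, −0.25 and 0.03 in control plates. These values come from the probe measured on all arrays, since the other had no value on 1 isoflurane array. The other probe read −0.20, −0.14 and 0.56 at halothane 3 MAC, 0.37, −0.03 and 0.65 at halothane 1 MAC, −0.23 and −0.32 on the remaining isoflurane arrays, and 0.38, −0.64 and −0.20 in controls. For isoflurane minus control the probes gave 0.15 and −0.13, opposite in sign. With the mean of every probe that had a value, isoflurane minus control in Per3 was 0.08, halothane 3 MAC minus control 0.20 and halothane 1 MAC minus control 0.33, none of which passed. The 95% interval for isoflurane minus control from the complete probe was −0.30 to 0.60.

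Cry2, a cryptochrome that represses CLOCK and BMAL1 together with the period proteins, had arrays that did not overlap between the agents at 3 MAC. Cry2 gave log2 ratios of −0.14, −0.16 and −0.18 at halothane 3 MAC, 0.68, 0.00 and −0.37 at halothane 1 MAC, 0.26, 0.21 and 0.20 under isoflurane, and 0.03, −0.44 and −0.02 in control plates. The isoflurane arrays lay above every halothane 3 MAC and control array. In Cry2, halothane 3 MAC minus isoflurane was −0.38 ± 0.23 (SE, interval −0.89 to 0.12; adjusted p = 0.478 in limma), and isoflurane minus control 0.36 ± 0.23 (adjusted p = 0.693). Without both halothane 1 MAC replicate 1 and control 2, halothane 3 MAC minus isoflurane in Cry2 was unchanged in size and passed (adjusted p = 0.0323 in limma). Neither array belongs to that comparison, so only the shared spread changed. It did not pass without halothane 1 MAC replicate 1 alone (adjusted p = 0.0981 in limma) or without control 2 alone (adjusted p = 0.457).

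Dbp encodes a D-box activator of the PAR bZIP family and is an output of the loop. Dbp gave log2 ratios of −0.43, −0.41 and −0.48 at halothane 3 MAC, 0.73, 0.32 and 0.06 at halothane 1 MAC, −0.11, −0.36 and −0.02 under isoflurane, and 0.20, −0.60 and 0.23 in control plates. The halothane 3 MAC arrays lay below all arrays of the other groups except control 2, which was the lowest of the 12. Dbp averaged −0.44 ± 0.04 with halothane 3 MAC and 0.37 ± 0.34 with halothane 1 MAC (SD, n = 3 each), a difference of −0.81 ± 0.23 (SE, interval −1.32 to −0.30), or 1.75-fold, with an adjusted p of 0.110 in limma.

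The Dbp difference between halothane doses passed without control 2 (−0.81 ± 0.18, adjusted p = 0.0289 in limma). Control 2 is in neither halothane group, so the difference was unchanged and only the shared spread fell. Without halothane 1 MAC replicate 1, which is in that comparison, it did not pass (−0.63 ± 0.23, adjusted p = 0.149). The Dbp difference between halothane 3 MAC and control was −0.38 ± 0.23 (adjusted p = 0.891) with all arrays and −0.65 ± 0.20 (adjusted p = 0.139) without control 2. It was −0.65 (adjusted p = 0.0110 in limma) without both arrays, a difference favoured by leaving out control 2. Isoflurane minus control was −0.10 ± 0.23.

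**Figure D3:**
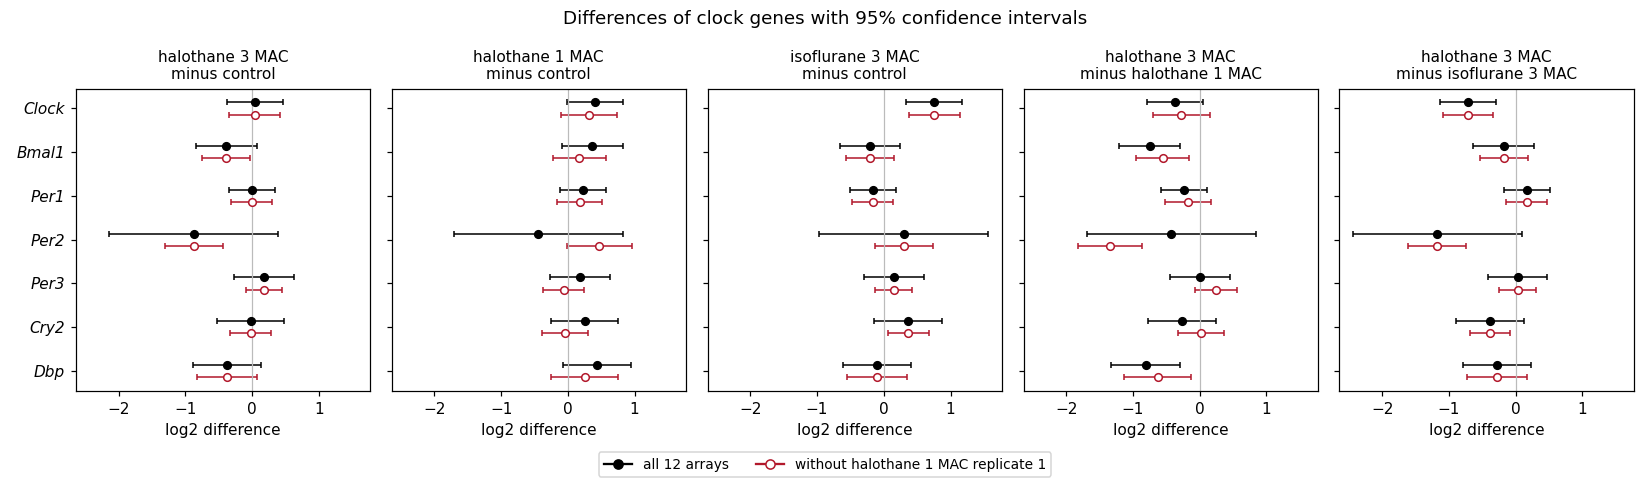
Log2 differences (x axes) of the 7 clock genes in 5 comparisons, with all 12 arrays (filled) and without halothane 1 MAC replicate 1 (open); bars are 95% confidence intervals. The Per2 interval for halothane 3 MAC minus isoflurane runs from −2.44 to 0.10 with all arrays and from −1.61 to −0.74 without that array.

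Set beside all features, halothane 3 MAC against control gave 0% of features and 0 of 7 clock genes at an adjusted p under 0.05, and 6.59% and 0 of 7 at an unadjusted p under 0.05. The arrays of these groups did not overlap in 16.1% of features and in 2 of 7 clock genes, Per2 and Bmal1, both lower. The median log2 difference was −0.02 over the clock genes and 0.00 over all features. Halothane 1 MAC against control gave 0% of features and 0 of 7 clock genes at the adjusted threshold, 7.54% and 0 of 7 unadjusted, and 10.2% and 1 of 7, Per1, without overlap. The clock genes' median was 0.25, against 0.08 over all features, a shift that is 0.00 over all features without halothane 1 MAC replicate 1, where the clock genes' median was 0.17. Isoflurane against control gave 0.0725% and 0 of 7 adjusted, 10.1% and 1 of 7, Clock, unadjusted, and 22.7% and 2 of 7, Cry2 and Clock, without overlap. The clock genes' median was 0.15 and that of all features 0.00. These 3 comparisons share the control arrays.

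Between treatments most clock genes had a lower mean with halothane 3 MAC, 5 of 7 against isoflurane and 7 of 7 against halothane 1 MAC. The share of all features that were lower was not counted beside these. Against halothane 1 MAC, Per3 differed by −0.000432 and turned sign with centring or quantile normalisation. Per3 (0.244) and Cry2 (0.0216) were both above 0 in that comparison without halothane 1 MAC replicate 1. Halothane 3 MAC against halothane 1 MAC gave 0% and 0 of 7 adjusted, and 18.5% and 2 of 7, Bmal1 and Dbp, unadjusted. The arrays did not overlap in 27.5% of features and in 4 of 7 clock genes, Per1, Bmal1, Clock and Dbp, all lower at 3 MAC. The clock genes' median was −0.37, against −0.08 over all features. Halothane 3 MAC against isoflurane gave 3.51% and 0 of 7 adjusted, and 16.8% and 1 of 7, Clock, unadjusted. The arrays did not overlap in 37.4% of features and in 4 of 7 clock genes, Per2, Cry2, Clock and Dbp, all lower with halothane. The clock genes' median was −0.28, against 0.01 over all features.

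The share of features called moved with the arrays that stood apart, and the clock genes' counts are read against it. Without halothane 1 MAC replicate 1, halothane 3 MAC minus halothane 1 MAC called 0.417% of features and 1 of 7 clock genes, Per2, at an adjusted p under 0.05. Halothane 3 MAC minus isoflurane then called 12.4% and 2 of 7, Per2 and Clock, the test of any difference 5.61% and 1 of 7, Per2, and isoflurane minus control 2.33% and 0 of 7. Halothane 3 MAC and halothane 1 MAC against control each stayed at 0% and 0 of 7. Without control 2, halothane 3 MAC minus halothane 1 MAC called 4.22% and 1 of 7, Dbp. Without both arrays, halothane 3 MAC minus control called 10.8% and 2 of 7, Per2 and Dbp, halothane 3 MAC minus halothane 1 MAC 9.89% and 2 of 7, the same genes, and halothane 3 MAC minus isoflurane 18.1% and 3 of 7, Per2, Cry2 and Clock. Any difference then called 17.8% and 2 of 7, Per2 and Dbp, isoflurane minus control 1.63% and 0 of 7, and halothane 1 MAC minus control 0.0121% and 0 of 7. Isoflurane against the pooled channel itself called 14.7% of features and 1 of 7, Clock, at 0.69 (adjusted p = 0.00787 in limma). That comparison leaves out the error of the control mean, while the control arrays still enter the shared spread. The sample was in Cy5 and the pool in Cy3, so dye and group cannot be told apart in it.

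The lists of astrocyte markers and of genes of dividing cells also set halothane 3 MAC and control 2 apart from the remaining arrays. The mean log2 ratio of 13 astrocyte markers lay between −0.90 and −0.79 with halothane 3 MAC, −0.06 and 0.14 at halothane 1 MAC, and 0.07 and 0.20 under isoflurane, and was 0.27, −0.82 and 0.17 in controls. The mean of 10 genes of dividing cells lay between 0.76 and 0.85 with halothane 3 MAC, −0.19 and −0.01 at halothane 1 MAC, and −0.80 and −0.03 under isoflurane, and was −0.45, 0.63 and −0.79 in controls. On both lists control 2 lay with the halothane 3 MAC arrays, as it did in Dbp. Between halothane 3 MAC and isoflurane, 5 of 13 astrocyte markers passed, 4 lower and 1 higher, and 2 of 10 genes of dividing cells passed, both higher, beside 3.51% of all features. With halothane 1 MAC replicate 1 left out, 8 astrocyte markers passed lower and 1 higher, and 5 genes of dividing cells passed higher, beside 12.4% of all features. The mean of 10 neuron markers lay between −0.10 and −0.01 with halothane 3 MAC, −0.44 and −0.12 at halothane 1 MAC, −0.16 and 0.01 under isoflurane, and −0.17 and 0.05 in controls. Neuron markers thus did not set halothane 3 MAC and control 2 apart. The endothelium and pericyte mean was −0.11 to 0.05 with halothane 3 MAC and −0.07 in control 2, and at least 0.08 on the other arrays. In other lists another array lay beyond them: isoflurane replicate 2 for microglia (−0.76) and the oligodendrocyte lineage (0.74), and halothane 1 MAC replicate 1 for fibroblasts and meninges (0.76). The part of these marker shifts in the values of Per2 and Dbp was not tested.

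**Figure D4:**
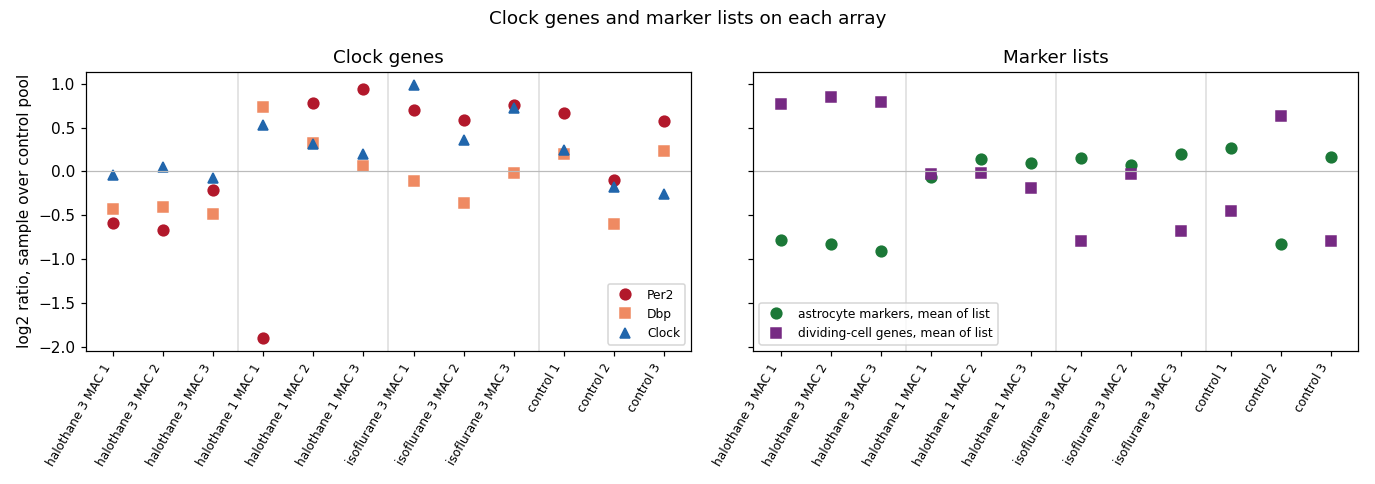
Log2 ratio of sample over control pool (y axes) on each array, for Per2, Dbp and Clock on the left and for the means of 13 astrocyte markers and 10 genes of dividing cells on the right. The 3 halothane 3 MAC arrays and control 2 have the lowest astrocyte means, −0.90 to −0.79 and −0.82, and also the lowest values of Dbp, −0.48 to −0.41 and −0.60.

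How the clock genes varied together was described by Pearson's r across arrays that share 1 pool, with 12 arrays and with the 11 that leave out halothane 1 MAC replicate 1. Per2 and Dbp had r = −0.09 over 12 arrays and 0.77 over 11. Cry2 and Clock had 0.68 and 0.73, and Per3 and Cry2 0.81 and 0.61. Per1 and Bmal1 had 0.70 and 0.57, and Bmal1 and Dbp 0.72 and 0.49. Per3 and Bmal1 had 0.23 and −0.61. Of the 21 pairs of clock genes, 11 had the opposite sign over the 11 arrays.

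The genes whose pattern over 12 arrays was most like that of a clock gene were also picked by Pearson's r over all named genes measured on every array. Larp6 (r = 0.97), Syf2 (0.97) and Plce1 (0.96) were most like Per2. Ltk (0.97), Tmem51 (0.97) and Sord (0.96) were most like Dbp, and Tektl1 (0.94), Dis3l2 (0.93) and Jph3 (0.91) most like Per1. Over the 11 arrays without halothane 1 MAC replicate 1 the nearest were Tmem43 (0.98), Rnase4 (0.97) and Abcc3 (0.97) for Per2, Crebl2 (0.97), Prodh (0.97) and Cyp7b1 (0.95) for Dbp, and Tektl1 (0.95), Doxl1 (0.93) and Mfrp (0.93) for Per1. The lists for Per2 and Dbp thus share no gene between both choices, and that for Per1 shares Tektl1.

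Further genes of the clock were taken from a list of 31 modifiers, kinases, ligase subunits and coupling peptides, of which 22 were measured. In this list 0 of 22 passed in any comparison with control or between the halothane doses, and 2 of 22 passed between halothane 3 MAC and isoflurane, both lower, beside 3.51% of all features. Without halothane 1 MAC replicate 1, 1 of 22 passed higher and 4 lower in that comparison, beside 12.4% of all features, and 1, Adcyap1, passed between isoflurane and control, beside 2.33%. The list's median difference between halothane 3 MAC and isoflurane was 0.10, against 0.01 over all features. Both genes that passed with all arrays, Adcyap1 and Vip, encode neuropeptides that couple or reset clock neurons in the suprachiasmatic nucleus.

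Adcyap1 encodes PACAP, a peptide that takes part in light input to the clock. Adcyap1 gave log2 ratios of 0.19, 0.07 and 0.13 at halothane 3 MAC, 0.15, 0.72 and 0.64 at halothane 1 MAC, 1.33, 0.91 and 1.12 under isoflurane, and 0.04, 0.06 and 0.44 in control plates. The isoflurane arrays lay above all others. Adcyap1 was lower with halothane 3 MAC than with isoflurane, with a difference of −0.99 ± 0.19 (SE, adjusted p = 0.0216 in limma). With each of the 12 arrays left out in turn it passed in 6 fits, and without any 1 halothane 3 MAC or isoflurane array it did not (adjusted p up to 0.102). Adcyap1 also did not pass under quantile normalisation, at −0.78 (adjusted p = 0.0763). Isoflurane minus control was 0.94 ± 0.19 (adjusted p = 0.0877), and passed without halothane 1 MAC replicate 1 (adjusted p = 0.0127).

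Vip encodes vasoactive intestinal peptide, which synchronises clock neurons. Vip gave log2 ratios of −1.45, −1.58 and −1.60 at halothane 3 MAC, 0.19, 0.04 and −0.21 at halothane 1 MAC, 0.51, 0.00 and 0.73 under isoflurane, and −0.26, −1.38 and 0.73 in control plates. The halothane 3 MAC arrays lay below all others, with control 2 next to them. Vip was lower with halothane 3 MAC than with isoflurane, with a difference of −1.96 ± 0.40 (SE, adjusted p = 0.0290 in limma). It passed in 6 of the 12 fits that leave out 1 array, and again in none that lacks a halothane 3 MAC or isoflurane array (adjusted p up to 0.119). The Vip difference between halothane 3 MAC and control was −1.24 ± 0.40 (adjusted p = 0.694).

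Timeless, whose mammalian protein serves DNA replication as well as the clock, ran the other way. Timeless gave log2 ratios of 1.23, 1.42 and 1.17 at halothane 3 MAC, −0.57, 0.35 and 0.22 at halothane 1 MAC, −0.23, 0.10 and −0.30 under isoflurane, and 0.01, 0.82 and −0.78 in control plates. The halothane 3 MAC arrays lay above all others, control 2 again next to them, as in the genes of dividing cells. For Timeless, halothane 3 MAC minus isoflurane was 1.41 ± 0.35 (SE, adjusted p = 0.0509 in limma, 0.0207 without halothane 1 MAC replicate 1). Rorb, a ROR receptor that acts on ROREs, was next with isoflurane at 0.64 ± 0.21 over control (adjusted p = 0.276). The kinase gene Gsk3b stood at 0.59 ± 0.32 with halothane 3 MAC over control (adjusted p = 0.833), and Csnk1d at −0.28 ± 0.15 with halothane 1 MAC over control (adjusted p = 0.626), or −0.12 without halothane 1 MAC replicate 1.

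**Figure D5:**
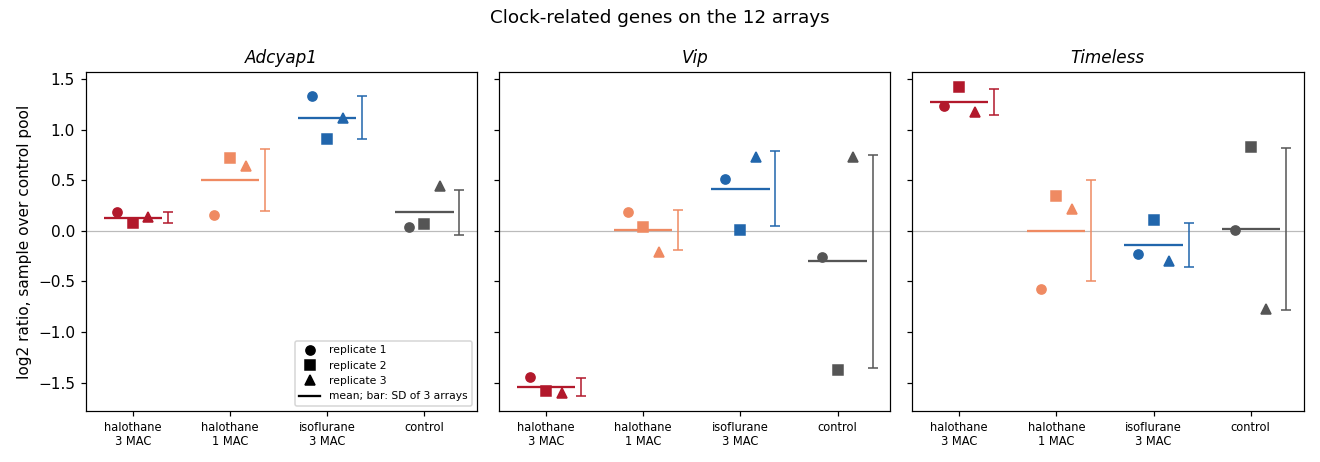
Log2 ratio of sample over control pool (y axis) of Adcyap1, Vip and Timeless on each array, by group (x axis), with symbols for the replicate number, lines for means and bars for the SD of 3 arrays. Adcyap1 is highest with isoflurane, 0.91 to 1.33, and with halothane 3 MAC Vip is lowest, −1.60 to −1.45, and Timeless highest, 1.17 to 1.42.

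The last list held 19 genes of the CREB and glucocorticoid routes that act on Per1 and Per2, of which 14 were measured. Between halothane 3 MAC and isoflurane 1 of 14 passed higher and 1 lower, beside 3.51% of all features, and 0 of 14 passed in the other 4 comparisons of groups. Without halothane 1 MAC replicate 1, 1 passed higher and 4 lower between halothane 3 MAC and isoflurane, beside 12.4% of all features, and 1, Cdkn1a, passed higher between isoflurane and control (adjusted p = 0.0415), beside 2.33%. Sik1, a kinase that restrains CREB coactivators, was higher with halothane 3 MAC than with isoflurane, with a difference of 0.87 ± 0.21 (SE, adjusted p = 0.0432 in limma). Sik1 read 0.09, 0.16 and 0.19 with halothane 3 MAC and −0.83, −0.48 and −0.87 with isoflurane. Cdkn1a, the cell cycle inhibitor p21, was lower, with a difference of −0.81 ± 0.19 (adjusted p = 0.0406). Cdkn1a read −0.10, 0.00 and −0.17 with halothane 3 MAC and 0.75, 0.83 and 0.59 with isoflurane. The groups did not overlap in either gene. Of the 12 fits that leave out 1 array, Sik1 passed in 4 (adjusted p up to 0.166) and Cdkn1a in 3 (adjusted p up to 0.167). Neither passed with the replicate number as a block (adjusted p = 0.0532 for Sik1 and 0.0569 for Cdkn1a in limma) or with exact zeros kept as values (0.0553 for Sik1 and 0.0502 for Cdkn1a), nor did Cdkn1a under quantile normalisation (0.0506). The list's median difference between these groups was −0.24, against 0.01 over all features. Klf9, a glucocorticoid target, stood at −1.17 in the same comparison (adjusted p = 0.0931), and at 0.96 for isoflurane minus control (adjusted p = 0.350). The phosphatase gene Dusp1 stood at −0.82 for halothane 3 MAC minus halothane 1 MAC (adjusted p = 0.0659).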

How the data were processed

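RNA was measured on 12 two-colour Agilent arrays, with the sample in Cy5 and pooled control RNA in Cy3, per the labels. The deposited values were read as log10 ratios of sample over pool, because they stop at exactly 2, a 100-fold ratio; neither base nor direction is stated. Partek is named in the submitters' processing notes, while dye and background correction are not given here by any source. Values were multiplied by 3.32 (log2 of 10). The table held 21575 spots, 12750 of them named by 1 gene symbol through the platform annotation. Exact zeros, 5.96% of values, were treated as missing, and 471 spots at the limit on at least 10 arrays were left out. On halothane 1 MAC replicate 1, 0 of these 471 spots were at the limit, against 467 to 471 on the other arrays. That array had 330 exact zeros, against 953 to 2124 on the others. Probes of 1 gene with values on every array were averaged. Features with at least 2 values in every group were tested: 16546, of which 9210 genes.

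Differences were fitted with limma 3.58.1 in R 4.3.3 (a mean for each of the 4 groups; degrees of freedom 8 residual and 3.46 from the eBayes prior; Benjamini-Hochberg adjustment of two-sided tests), and the code was tested on simulated data. Python 3.11.15 with numpy 2.4.6, pandas 2.3.3 and matplotlib 3.10.9 made the tables and plots.

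The members, the gene and marker lists and the tests were chosen with earlier results of these data known. From each gene list the 3 genes of smallest p in a comparison could be named with values; where fewer are named they are a part of those. Promoters holding an E-box or a full cAMP response element were to be printed; of the measured genes none held one, so the Per2 and Bmal1 windows were chosen after the motif search. The alternatives were zeros kept, centring, quantile normalisation, all probes averaged, complete features, a replicate block, the pool as reference and each array left out.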

Additional observations from a re-analysis of the deposited data

How the results depend on the processing

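Over 819 refits of single clock genes, 776 kept the side of the threshold and any direction, 15 passed anew and 28 turned sign. These refits include the tests of any difference, which have no direction. No clock gene passed with all arrays, so no call could be lost. Leaving out an array outside a comparison cannot change its difference. The 776 are thus no measure of robustness. All of those that turned started from differences that had not passed. With control 2 and halothane 1 MAC replicate 1 both removed, a choice made after the data had been seen, the log2 difference from control with halothane 1 MAC became 0.23 for Per2, −0.14 for Per3, −0.19 for Cry2 and −0.0184 for Dbp, halothane 3 MAC minus halothane 1 MAC became 0.244 for Per3 and 0.0216 for Cry2, and halothane 3 MAC minus control became −0.0188 for Clock. Under quantile normalisation, halothane 3 MAC minus control became 0.00944 for Per1, and it was −0.0233 for Clock with the pool as reference. In Per3, halothane 3 MAC minus halothane 1 MAC became 0.0779 with centring and 0.19 with quantile normalisation. The cause was not tested.

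With 1 array left out at a time, halothane 3 MAC minus control ranged from −0.0388 to 0.035 for Per1, turned by halothane 3 MAC replicate 2 and control 3, −0.165 to 0.0682 for Cry2, turned by controls 1 and 3, and −0.0553 to 0.193 for Clock, turned by controls 2 and 3. Halothane 1 MAC minus control ranged from −0.94 to 0.47 for Per2, −0.0644 to 0.388 for Per3 and −0.0403 to 0.486 for Cry2, each turned by halothane 1 MAC replicate 1. Between the halothane doses the differences ranged from −1.35 to 0.0709 for Per2, turned by halothane 1 MAC replicate 3, from −0.21 to 0.24 for Per3, turned by halothane 1 MAC replicate 1 and halothane 3 MAC replicate 2, and from −0.505 to 0.0216 for Cry2, turned by halothane 1 MAC replicate 1. For Per3, halothane 3 MAC minus isoflurane ranged from −0.0227 to 0.102, turned by halothane 3 MAC replicate 1 and isoflurane replicate 2, and for Dbp, isoflurane minus control from −0.373 to 0.0407, turned by controls 1 and 3.

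Counts of features past the threshold moved more. Between isoflurane and control the count was 12, and it was 7 with zeros kept, 4 with quantile normalisation, 1 with the replicate block, 2429 against the pool, 270 without both arrays and 1 to 386 with 1 array left out, the highest without halothane 1 MAC replicate 1. Between halothane 3 MAC and isoflurane it was 580, and 2994 without both, and 0 to 2047 with 1 left out, the lowest without halothane 3 MAC replicate 1 and the highest without halothane 1 MAC replicate 1. Between halothane 3 MAC and control it was 0, and 1173 against the pool, 1791 without both, and 0 to 465 with 1 left out, the highest without control 2. Between the halothane doses it was 0, and 150 with quantile normalisation, 1637 without both, and 0 to 698 with 1 left out, the highest without control 2. Between halothane 1 MAC and control it was 0, and 1 with zeros kept or quantile normalisation, 755 against the pool, 2 without both, and 0 to 4 with 1 left out, the highest without control 1. Any difference among the groups gave 34, and 1 with zeros kept, 2 with quantile normalisation, 1 with the replicate block, 2943 without both, and 1 to 928 with 1 left out, the highest without halothane 1 MAC replicate 1.

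Replicate numbers are shared by the groups, but the deviations of same-numbered arrays correlated at −0.076 to 0.097 and 5 of 12 arrays correlated best with their own number. The labels do not say whether a number marks 1 mother, and the block was not made the main fit. The replicate block gave 431 features between halothane 3 MAC and isoflurane and changed no call of a clock gene.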
